A study of Mus musculus with 8 samples.

Results

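The enzymes that write, copy and remove DNA methylation and the repressors Rbl1 and Rbl2 were followed at the RNA level in mouse oocytes without Dicer, as 10 genes: Dnmt1, Dnmt3a, Dnmt3b, Dnmt3l, Rbl1, Rbl2, Tet1, Tet3, Uhrf1 and Dppa3. The members were fixed by name. Every probe set whose only gene symbol on the array platform is a member was taken, which gave 25 of 45037 probe sets and 10 of 18193 genes. Fully grown oocytes with an intact germinal vesicle, the nucleus of the oocyte before meiosis resumes, came from 4 females labelled Dicer knockout and 4 labelled wild-type, all of a 129/C57BL6 background and all primed with equine chorionic gonadotropin. The attached cumulus cells were removed by pipetting, and 20 oocytes of each mouse gave the RNA for 1 Affymetrix mouse array, after 2 rounds of amplification. The age of the mice, the deleted part of Dicer1 and the driver of the deletion are not given in the sources used here. Values are log2 signals as deposited, and 1 unit is a doubling of signal.

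In embryonic stem cells, a different cell type that is no sample here, loss of Dicer is known to remove the microRNAs of the miR-290 to miR-295 cluster. Rbl2, one of their targets, then rises, and the genes of the de novo DNA methyltransferases Dnmt3a, Dnmt3b and Dnmt3l fall. Rbl1 and Rbl2 are pocket proteins, relatives of the retinoblastoma protein, which bind E2F factors at promoters and hold transcription down. In growing oocytes Dnmt3a and its inactive partner Dnmt3l lay down the methylation that the egg carries, and Dicer-dependent microRNAs are known to have little activity there. The question of the comparison was whether the stem cell pattern is also seen in the oocyte.

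Mature 3p arms of that cluster are shown because several of them carry the seed through which Rbl2 is known to be recognised in stem cells. Not every 3p arm of the cluster had an entry in the source used here. They are 6 sequences from RefSeq on GRCm38.p6, and capitals mark the seed, bases 2 to 8. Their levels were not analysed here.
miR-290a-3p (chr7:3218674-3218697, plus strand): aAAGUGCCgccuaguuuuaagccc
miR-291a-3p (chr7:3218968-3218989, plus strand): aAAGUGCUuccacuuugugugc
miR-291b-3p (chr7:3219529-3219550, plus strand): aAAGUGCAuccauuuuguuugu
miR-293-3p (chr7:3220390-3220411, plus strand): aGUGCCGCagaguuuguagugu
miR-294-3p (chr7:3220691-3220712, plus strand): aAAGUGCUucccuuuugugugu
miR-295-3p (chr7:3220815-3220837, plus strand): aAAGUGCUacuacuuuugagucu
The seed AAGUGCU is shared by 3 of the 6, those of miR-291a-3p, miR-294-3p and miR-295-3p. The seeds AAGUGCC of miR-290a-3p and AAGUGCA of miR-291b-3p differ from it in their final base, and miR-293-3p has the seed GUGCCGC.

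In knockout oocytes Rbl2 fell and Dnmt3b rose, each opposite in sign to what is described for stem cells, and Rbl1 fell as well. Dnmt3a fell in 2 of its 5 probe sets, the direction described for stem cells, and Tet1 and Dppa3 fell in 1 each. No probe set of Dnmt1, Dnmt3l, Tet3 or Uhrf1 passed the test. Dnmt3l, which falls in stem cells, differed by -0.04 here. Of the 25 probe sets, 2 rose and 8 fell, against 6.82% of all probe sets that rose and 9.31% that fell (16.1% in either direction). With each gene represented by its brightest probe set, 1 of 10 genes rose and 5 fell, against 8.18% and 12.8% of all genes (21% in either direction). Several probe sets read the same transcript, so the 25 are not independent of each other.

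**Figure D1:**
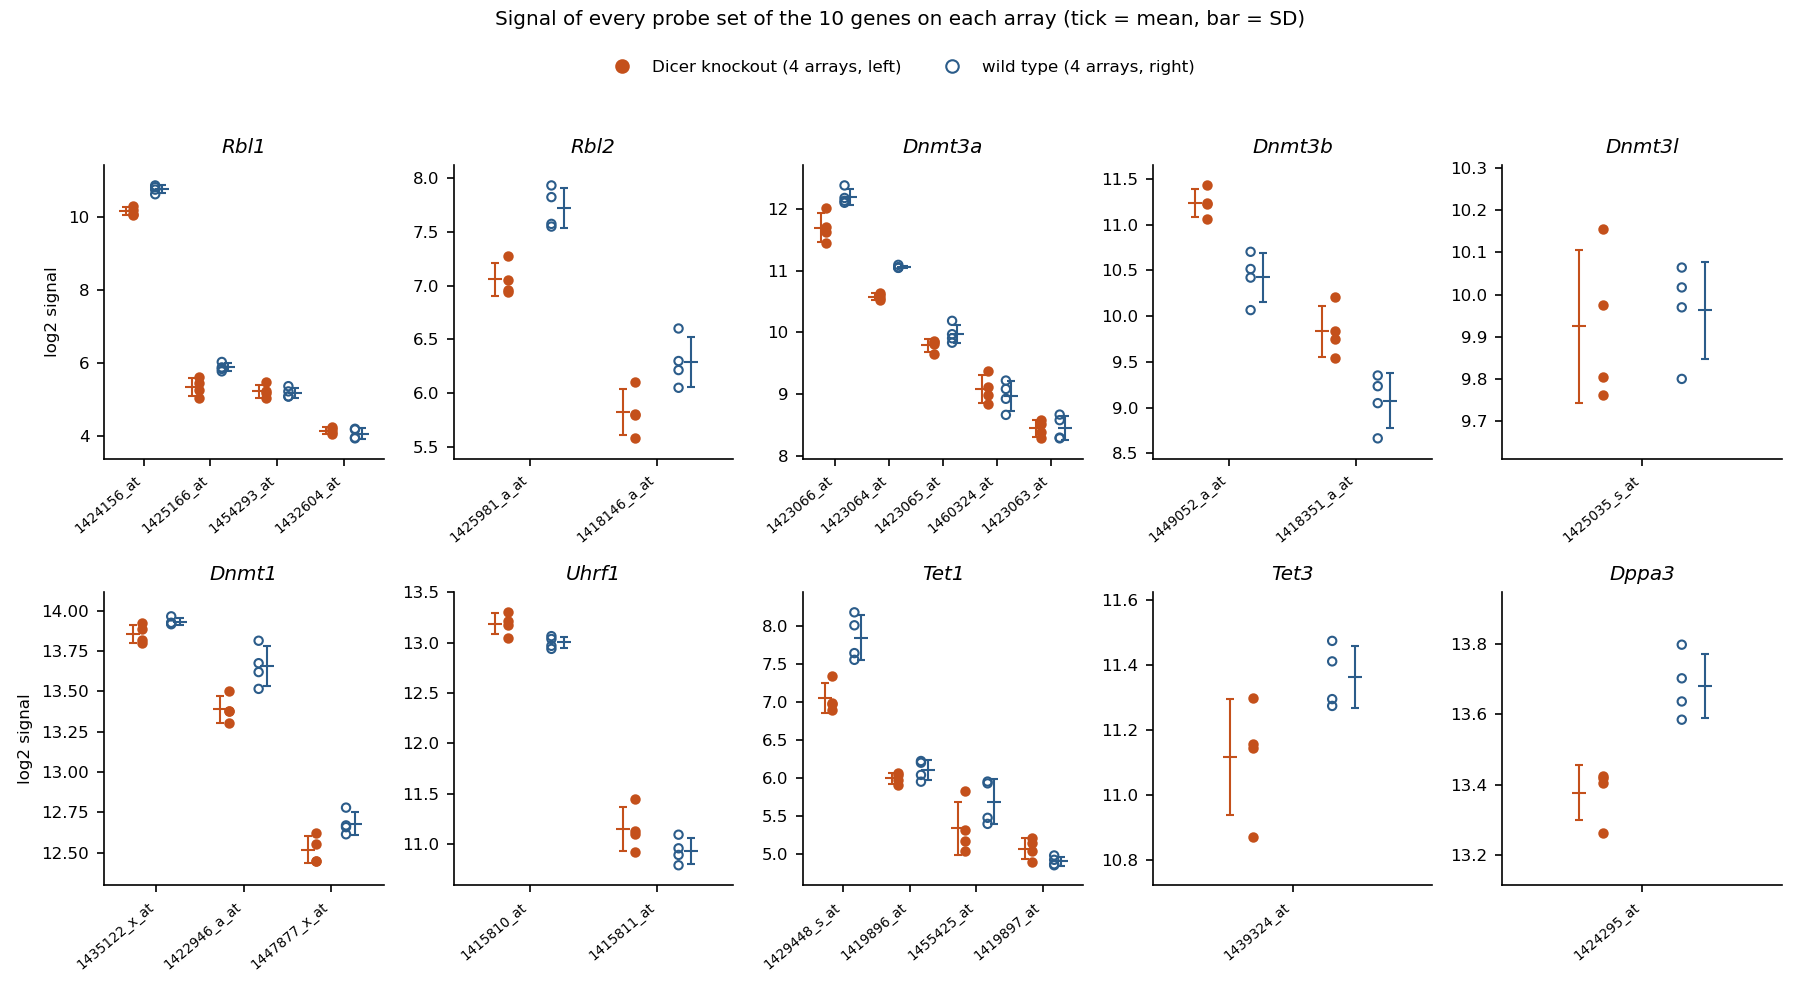
Log2 signal (vertical axes, a separate scale in each panel) of every probe set of the 10 genes, with the 4 knockout arrays as filled points on the left and the 4 wild-type arrays as open points on the right of each probe set, and mean and SD beside them. Both Dnmt3b probe sets lie higher on all 4 knockout arrays, and the bright probe sets of Rbl1, Rbl2 and Dnmt3a lie lower on all 4.

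Some facts of the whole series bear on these values. Array medians lay between 6.35 and 6.43, and pairs of arrays correlated across probe sets at r = 0.9915 to 0.9947 within groups and at 0.9797 to 0.9865 between groups. Both Dicer1 probe sets read higher in knockout oocytes (14.32 against 13.13 and 12.31 against 11.62 in wild type), and whether they lie in the deleted part is not known, so they do not check the genotype. Oocyte markers such as Zp1, Zp2, Zp3, Gdf9 and Bmp15 were bright in both groups, with a mean over 14 markers of 13.0 to 13.1 on knockout arrays and 13.0 to 13.2 on wild-type arrays, while Ddx4 rose and Mos, Figla and Kit fell. Markers of cumulus and granulosa cells, the somatic cells around the oocyte, moved with the genotype: 9 of 19 fell and 0 rose, with a median log2 difference of -0.44. Their summed linear signal was 5518 to 7436 on knockout arrays and 8552 to 12610 on wild-type arrays, with none at 0, since RMA values have no zero. In samples of this kind, fewer cells of a type and less RNA per cell cannot be told apart. The part of such cells in the falls of Rbl1, Rbl2, Dnmt3a, Tet1 and Dppa3 was not tested. Dnmt3b rose while 9 of these 19 markers fell, and the part of such cells in its rise was not tested either. Of 18 markers of theca, stroma, vessels and blood, Cd68 rose and Tek and Kdr fell.

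Rbl2, the pocket protein that stem cell microRNAs are known to lower, fell in each probe set that reads it. The brighter, 1425981_a_at, read 6.94, 7.05, 7.28 and 6.96 on the 4 knockout arrays, against 7.93, 7.82, 7.55 and 7.57 on the 4 wild-type arrays. Every knockout value was below every wild-type value. The log2 difference was -0.66 ± 0.113 (SE), with a 95% interval from -0.92 to -0.41, so the knockout signal was 0.632 times that of wild type (adjusted p = 0.00362, limma).

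The second Rbl2 probe set, 1418146_a_at, averaged 5.82 ± 0.217 in knockout and 6.29 ± 0.231 in wild-type oocytes (SD, n = 4 each). Here the groups overlapped, because knockout array 3 read 6.11 and wild-type array 3 read 6.05. Its difference of -0.47 ± 0.139 passed narrowly (adjusted p = 0.0481), and leaving out wild-type array 1, 2 or 4 or knockout array 1, 2 or 4 ended the call (adjusted p 0.0281 to 0.116 over 16 alternatives). Its mean lies below the median of every array, and whether its low signal affected its difference was not tested. The brighter one passed under all 16 alternatives, with log2 differences from -0.87 to -0.59. The unequal size of the 2 falls did not pass its own test (difference 0.19 ± 0.104, adjusted p = 0.262).

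Rbl1, the other pocket protein and itself a textbook E2F target, fell in its bright probe set and in 1 of its 3 dim ones. Probe set 1424156_at read 10.18, 10.09, 10.05 and 10.31 on knockout arrays, against 10.75, 10.87, 10.63 and 10.82 on wild-type arrays. The groups were clearly apart, with no overlap. The log2 difference was -0.61 ± 0.0852, or 0.657 times wild type (adjusted p = 0.00125).

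Of the dim Rbl1 probe sets, 1425166_at fell by 0.53 on the log2 scale (5.34 ± 0.243 in knockout, 5.87 ± 0.11 in wild type, adjusted p = 0.0157). Probe sets 1454293_at and 1432604_at read 5.22 and 4.13 in knockout oocytes and 5.18 and 4.05 in wild type, with differences of 0.04 and 0.08 that did not pass. Within arrays, each of the last 2 moved unequally with the bright probe set (differences of 0.65 ± 0.153 and 0.69 ± 0.115, adjusted p = 0.0205 and 0.00405). All 3 lie below the median of every array. Whether the last 2 read the Rbl1 mRNA at a measurable level was not tested.

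The genes whose signal followed each pocket protein most closely over the 8 arrays were looked for among 8275 genes with a mean log2 signal of at least 8. For Rbl2 they were Kdm6a (Pearson r = 0.986), Mxd1 (0.983) and Fbxl17 (0.98), and for Rbl1 they were Mcm4 (0.996), A830010M20Rik (0.996) and Tgfb2 (0.992). These correlations are descriptions over 8 arrays that fall into 2 groups, so all of them share the difference between genotypes.

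Dnmt3b, a de novo methyltransferase that the oocyte is known not to need for its methylation, rose in both probe sets. Probe set 1449052_a_at read 11.06, 11.24, 11.43 and 11.22 on knockout arrays, against 10.51, 10.07, 10.70 and 10.42 on wild-type arrays. The lowest knockout array was above the highest wild-type array. The rise of 0.81 ± 0.135 on the log2 scale, 1.75-fold with a 95% interval of the log2 difference from 0.51 to 1.11, had an adjusted p of 0.00321.

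Probe set 1418351_a_at read 9.54, 10.21, 9.84 and 9.74 on knockout arrays, against 9.05, 8.66, 9.23 and 9.35 on wild-type arrays. Again no values overlapped, and wild-type array 2 was the lowest in both probe sets. The rise was 0.76 ± 0.173, or 1.69-fold (adjusted p = 0.0153). Both Dnmt3b probe sets passed under all 16 alternatives, at log2 differences from 0.69 to 0.94 and from 0.62 to 1.12, and did not differ from each other beyond their spread (-0.05 ± 0.147, adjusted p = 0.865).

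Dnmt3a, the methyltransferase that sets oocyte methylation, fell in its 2 brightest probe sets and in none of the other 3. Probe set 1423064_at read 10.55, 10.65, 10.61 and 10.52 on knockout arrays, against 11.09, 11.06, 11.05 and 11.05 on wild-type arrays. The spread within each group was a small part of the gap between them. The difference was -0.48 ± 0.0636, or 0.717 times wild type (adjusted p = 0.000906).

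The brightest, 1423066_at, read 11.62, 12.01, 11.71 and 11.45 on knockout arrays, against 12.13, 12.10, 12.18 and 12.38 on wild-type arrays. Knockout array 2 came close to the wild-type range without entering it. The difference of -0.50 ± 0.121 (adjusted p = 0.0203) did not pass without wild-type array 4 or knockout array 1, at log2 differences of -0.60 to -0.42 over the single arrays left out (adjusted p up to 0.0577).

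The dimmer Dnmt3a probe sets 1423065_at, 1460324_at and 1423063_at differed by -0.19, 0.11 and -0.01 (adjusted p = 0.229, 0.688 and 0.967), and their groups overlapped. The intervals of the last 2, -0.21 to 0.43 and -0.26 to 0.24, leave out a fall of 0.5, near the estimates of the bright pair. Those estimates have errors too. The interval of 1423066_at, -0.77 to -0.23, overlaps that of 1423063_at and narrowly misses that of 1460324_at. The unequal change within arrays, tested for each against 1423066_at, did not pass (adjusted p 0.118 to 0.168). With the mean of all 5 probe sets in place of the brightest, Dnmt3a differed by -0.21 ± 0.069 (adjusted p = 0.0555). The fall thus passed in 2 of the 5 probe sets, while the mean of the 5, also lower in knockout, narrowly missed the threshold.

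Dnmt3l, the inactive cofactor of Dnmt3a in germ cells, has 1 probe set, 1425035_s_at, whose suffix _s marks sequence shared between transcripts. It read 9.98, 10.16, 9.76 and 9.80 on knockout arrays, against 9.97, 10.02, 9.80 and 10.06 on wild-type arrays. The groups lay on top of each other. The difference of -0.04 has a 95% interval from -0.27 to 0.19 (adjusted p = 0.857).

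**Figure D2:**
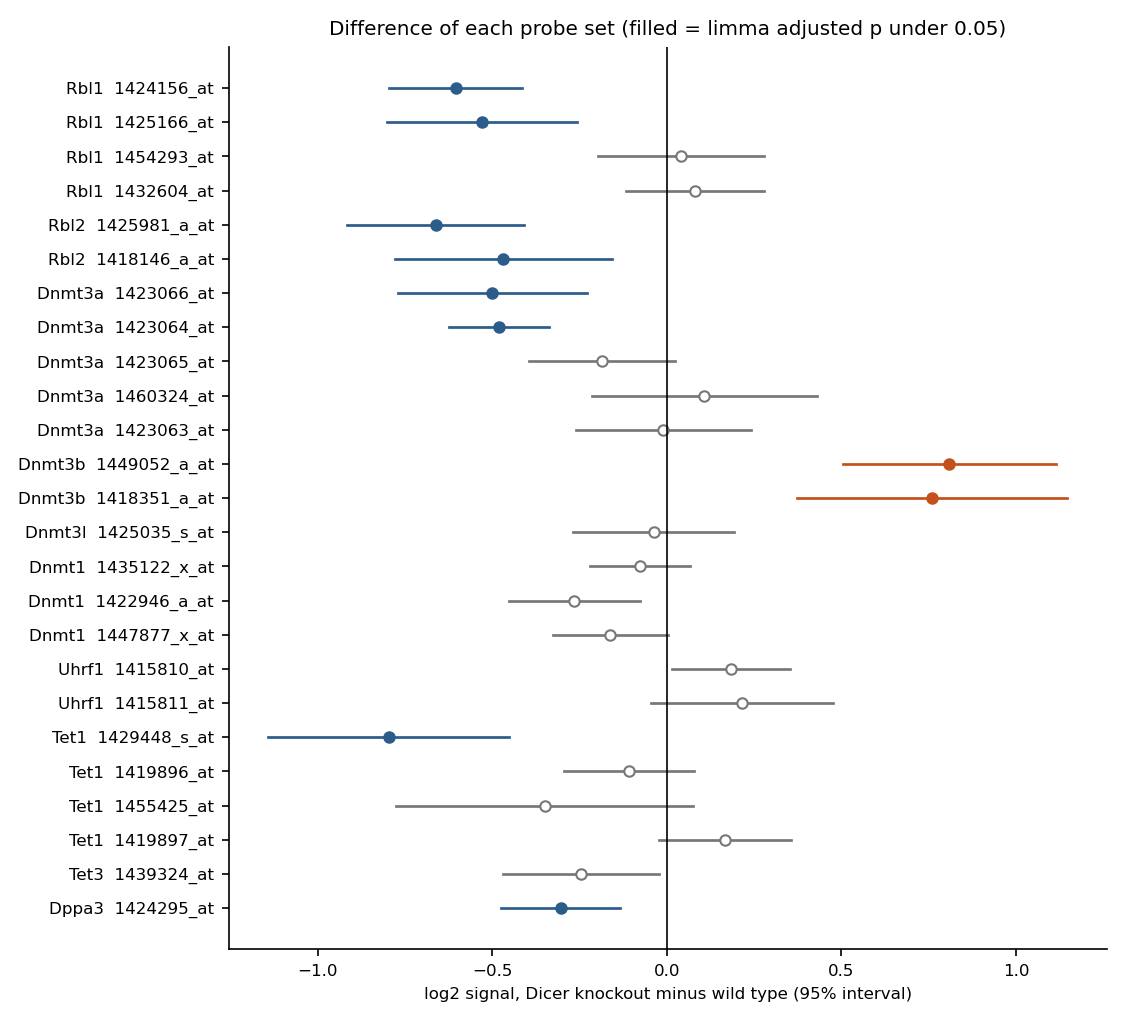
Log2 difference of knockout minus wild type (horizontal axis) with its 95% interval for the 25 probe sets (vertical axis), filled where limma's adjusted p is under 0.05. The 2 Dnmt3b probe sets are the filled points to the right of 0, and 8 filled points of Rbl1, Rbl2, Dnmt3a, Tet1 and Dppa3 lie to the left.

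Dnmt1, which copies methylation onto new strands and which oocytes store as a variant that differs at the 5′ end, was bright in its 3 probe sets and lower in the mean in each. Probe set 1422946_a_at read 13.38, 13.50, 13.38 and 13.30 on knockout arrays, against 13.62, 13.67, 13.51 and 13.81 on wild-type arrays. These groups did not overlap, which held for 10 of the 25 probe sets and for 21.2% of all probe sets. The difference of -0.27 ± 0.0836 missed the threshold (adjusted p = 0.0599), and over 16 alternatives adjusted p ran from 0.0203 to 0.471, with 5 under the threshold. The other 2, 1435122_x_at and 1447877_x_at, differed by -0.08 and -0.16 (adjusted p = 0.489 and 0.179).

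Uhrf1, the protein that finds hemimethylated sites for Dnmt1, was higher in the mean in knockout oocytes without passing in either probe set. Probe set 1415810_at averaged 13.19 ± 0.105 in knockout and 13.00 ± 0.0582 in wild type (difference 0.18, adjusted p = 0.141), and 1415811_at averaged 11.15 ± 0.218 in knockout and 10.94 ± 0.127 in wild type (difference 0.22, adjusted p = 0.264). Their mean passed narrowly, at 0.20 ± 0.0625 (adjusted p = 0.0495).

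Tet1, which oxidises methylated cytosine, fell in its brightest probe set, 1429448_s_at. It read 6.99, 6.90, 7.35 and 6.98 on knockout arrays, against 7.65, 8.18, 7.56 and 8.01 on wild-type arrays. The groups did not overlap, with knockout array 3 nearest to wild type. The difference of -0.80 ± 0.154, or 0.576 times wild type, was the largest fall among the 25 probe sets (adjusted p = 0.00681). Its suffix _s marks sequence shared between transcripts, and it was the only Tet1 probe set that passed.

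The 3 dimmer Tet1 probe sets, all below the array medians, did not pass. Probe set 1419896_at differed by -0.11, 1455425_at by -0.35 and 1419897_at by 0.17 (adjusted p = 0.45, 0.266 and 0.23). Within arrays, 1419896_at and 1419897_at moved unequally with the brightest probe set (adjusted p = 0.0292 and 0.00373). In all, 4 of the 15 such comparisons among the 10 genes passed, against 14.6% of all second probe sets. That count was 2 without wild-type array 2 and 2 without wild-type array 4, and with probe sets of mean log2 signal under 6 left out it was 1, with fewer comparisons to test.

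Tet3, the oxidase that the egg stores for the paternal genome of the zygote, read 11.14, 11.15, 11.30 and 10.87 on knockout arrays in its probe set 1439324_at, against 11.41, 11.27, 11.47 and 11.29 on wild-type arrays. Knockout array 3 lay inside the wild-type range. The difference was -0.25 ± 0.0995 (adjusted p = 0.135), with an interval from -0.47 to -0.02.

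Dppa3, the maternal factor that shields the egg's methylation and is known to keep Uhrf1 out of the oocyte nucleus, fell. Probe set 1424295_at read 13.40, 13.42, 13.26 and 13.43 on knockout arrays, against 13.80, 13.59, 13.64 and 13.70 on wild-type arrays. No values overlapped, and knockout array 3 was the lowest. The difference of -0.30 ± 0.0758, or 0.81 times wild type (adjusted p = 0.0233), did not pass with cyclic loess scaling (-0.24) or without wild-type array 1, wild-type array 4 or knockout array 3 (adjusted p 0.00483 to 0.316 over 16 alternatives).

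The first number in the sample titles, whose meaning the labels do not give, is shared by a knockout and a wild-type array in 2 cases, 24 and 27. All 10 probe sets that passed had the same sign in both of these pairs. For 9 of the 10 this sign was fixed in advance, because their groups did not overlap. The log2 difference of Rbl2 (1425981_a_at) was -0.88 in the pair numbered 24 and -0.86 in the pair numbered 27, that of Rbl1 (1424156_at) -0.66 and -0.55, that of Dnmt3b (1449052_a_at) 0.72 and 1.15, and that of Dnmt3a (1423066_at) -0.12 and -0.65. The number was also fitted as a fixed block, a paired fit whose difference rests on these 2 pairs alone. Under it 3 of the 10 stayed past the threshold: both Dnmt3b probe sets and the brighter Rbl2 probe set.

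**Figure D3:**
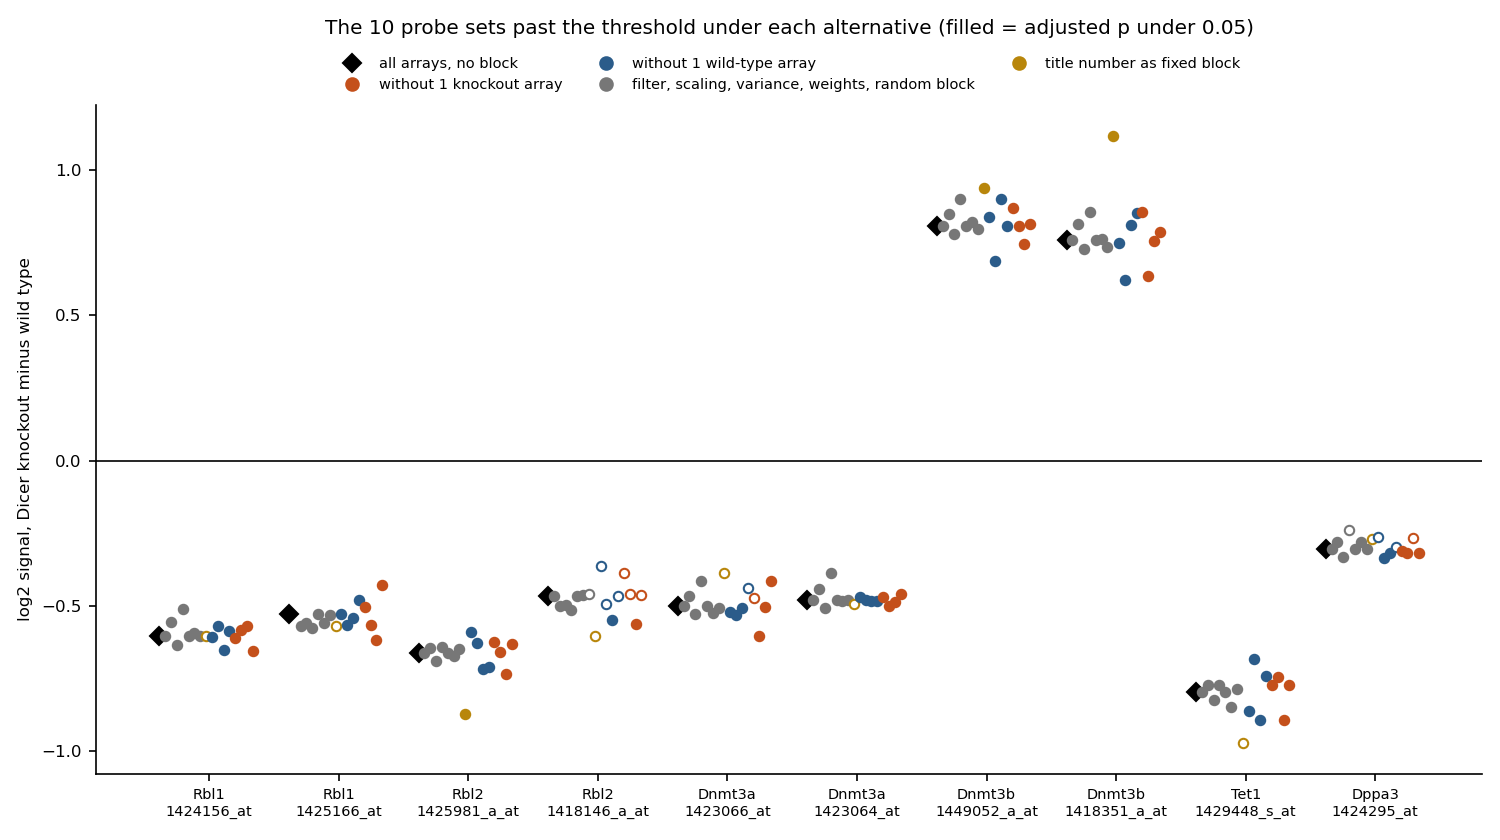
Log2 difference of knockout minus wild type (vertical axis) for the 10 probe sets that passed, with all arrays (black diamonds) and under each alternative (circles), filled where adjusted p is under 0.05. No point changes sign, which was fixed in advance for single arrays left out of the 9 probe sets without overlap. The Dnmt3b points and those of the brighter Rbl2 probe set are filled throughout, while most open points belong to the dimmer Rbl2 probe set, Dppa3 and the fixed block.

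Promoter letters were searched because pocket proteins act through E2F sites and the cell cycle element CHR. Windows ran from 250 bases before to 50 after a gene's start, from RefSeq on GRCm38.p6, and were found for 9 of the 10 genes, 16 in all, with Dppa3 not matched. TTTCCCGC, TTTCGCGC, TTTGCCGC and TTTGGCGC were searched for E2F and TTTGAA for CHR, on both strands. Among the genes with a match, Rbl1, Rbl2 and Dnmt3b moved in all of their bright probe sets, so their places are shown. A place in Dnmt1 and in Uhrf1 is shown because it holds the same E2F letters as Rbl1. Each is printed along the gene's own strand in 30 bases, and capitals mark the match.
Rbl1 (chr2:157204534-157204563, minus strand): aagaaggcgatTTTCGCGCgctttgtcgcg
Dnmt1 (chr9:20952824-20952853, minus strand): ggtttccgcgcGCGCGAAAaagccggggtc
Uhrf1 (chr17:56304117-56304146, plus strand): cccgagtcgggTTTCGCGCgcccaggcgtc
Rbl2 (chr8:91069845-91069874, plus strand): gtctttttctcTTCAAAcgagccttctgaa
Dnmt3b (chr2:153649310-153649339, plus strand): tcgggagggatTTCAAAtctccctcgcccg
TTTCGCGC lies 18 bases before the start of Rbl1. Dnmt1 and Uhrf1 have several starts each. The letters lie 219 bases before a start of Dnmt1 (on the opposite strand) and 185 before a start of Uhrf1. The other windows of these genes do not hold them, and which start the oocyte uses was not tested. The Dnmt1 window with TTTCGCGC also holds TTTGGCGC, 33 bases after its start. Of all 32851 windows, 0.323% hold TTTCGCGC. An E2F match of any of the 4 kinds stood in 3 of the 16 windows and in 2.26% of all. TTTGAA lies on the opposite strand 201 bases before the start of Rbl2 and 128 before that of Dnmt3b. TTTGAA stood in 3 of the 16 windows, the remaining one at a different start of Dnmt1 from the E2F matches, and in 17.9% of all. Of the 3 genes with TTTCGCGC, Rbl1 fell, while Dnmt1 (-0.08 in its brightest probe set) and Uhrf1 (0.18) did not pass. A match describes letters only.

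Other genes of DNA methylation were taken from a list of partners, readers and demethylation factors. Of 38 measured, 6 rose and 6 fell (31.6%, against 21% of all genes), with a median log2 difference of 0.00 in the list and 0.00 over all genes. Ehmt2, a histone methyltransferase, rose by 0.87 in 1 of its 2 probe sets, Gadd45a, a stress gene linked to demethylation, by 0.96, and Mbd1, which binds methylated DNA, by 0.58 in its brightest and 0.42 in a second of 5 probe sets. Kdm1b, the histone demethylase that imprints need in the oocyte, rose 0.56 ± 0.111 (12.74 in knockout, 12.19 in wild type, adjusted p = 0.00807). The other 2 that rose were Kdm1a and Mbd4.

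Hells, a remodelling factor that helps methylation, fell by 0.47 in its brightest probe set, while a second rose by 0.48 (adjusted p = 0.0353, and 0.0511 with median scaling). Nsd1, whose histone mark guides oocyte methylation, fell by 0.30 in its brightest probe set (adjusted p = 0.0217, and 0.0638 with cyclic loess scaling) and by 0.41 in another, and rose by 1.67 in a further one (adjusted p = 3.68e-05). Mat2b, of the enzyme that makes the methyl donor, fell by 0.31. Zfp57, which protects imprints, fell to 12.55 ± 0.239 in knockout oocytes, against 12.99 ± 0.086 in wild type (-0.44, adjusted p = 0.031, and 0.059 with cyclic loess scaling). The other 2 that fell were Ctcf and Kat5.

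Trim28, the corepressor that Zfp57 recruits, differed by -0.06 (adjusted p = 0.653), and Tet2, the remaining Tet oxidase, by -0.24 and 0.25 in its 2 dim probe sets (adjusted p = 0.135 and 0.164), the groups overlapping in the first and not in the second. The balance within the list depended on scaling: 8 rose and 2 fell with cyclic loess, and 4 and 6 with median scaling. The count of 12 was 7 without wild-type array 2 and 6 without knockout array 3.

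Pocket protein, E2F and DREAM genes, the partners of Rbl1 and Rbl2, were mostly not past the threshold: of 31 measured, 3 rose and 0 fell (9.68%, against 21% of all genes), with a median log2 difference of 0.02. Ccnd3, a D-type cyclin, rose by 0.83 in 1 of 3 probe sets, Lin52, a subunit of the DREAM complex, by 0.36 in 1 of 2, and Rbbp4, a histone chaperone in it, by 0.25 and 0.64 in 2 of 4. The brightest Rbbp4 probe set did not pass with median scaling (0.22, adjusted p = 0.0629), under which 2 genes of the list rose and 1 fell. Rb1, the third pocket protein, averaged 12.11 ± 0.246 in knockout and 12.26 ± 0.0552 in wild-type oocytes (-0.15, adjusted p = 0.445). E2f4 (0.18), E2f5 (-0.04) and Lin54 (-0.26), which bind DNA in complexes with Rbl1 and Rbl2, did not pass. The count of 3 was 1 without wild-type array 2 or 4 and 1 without knockout array 1, 2 or 3.

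**Figure D4:**
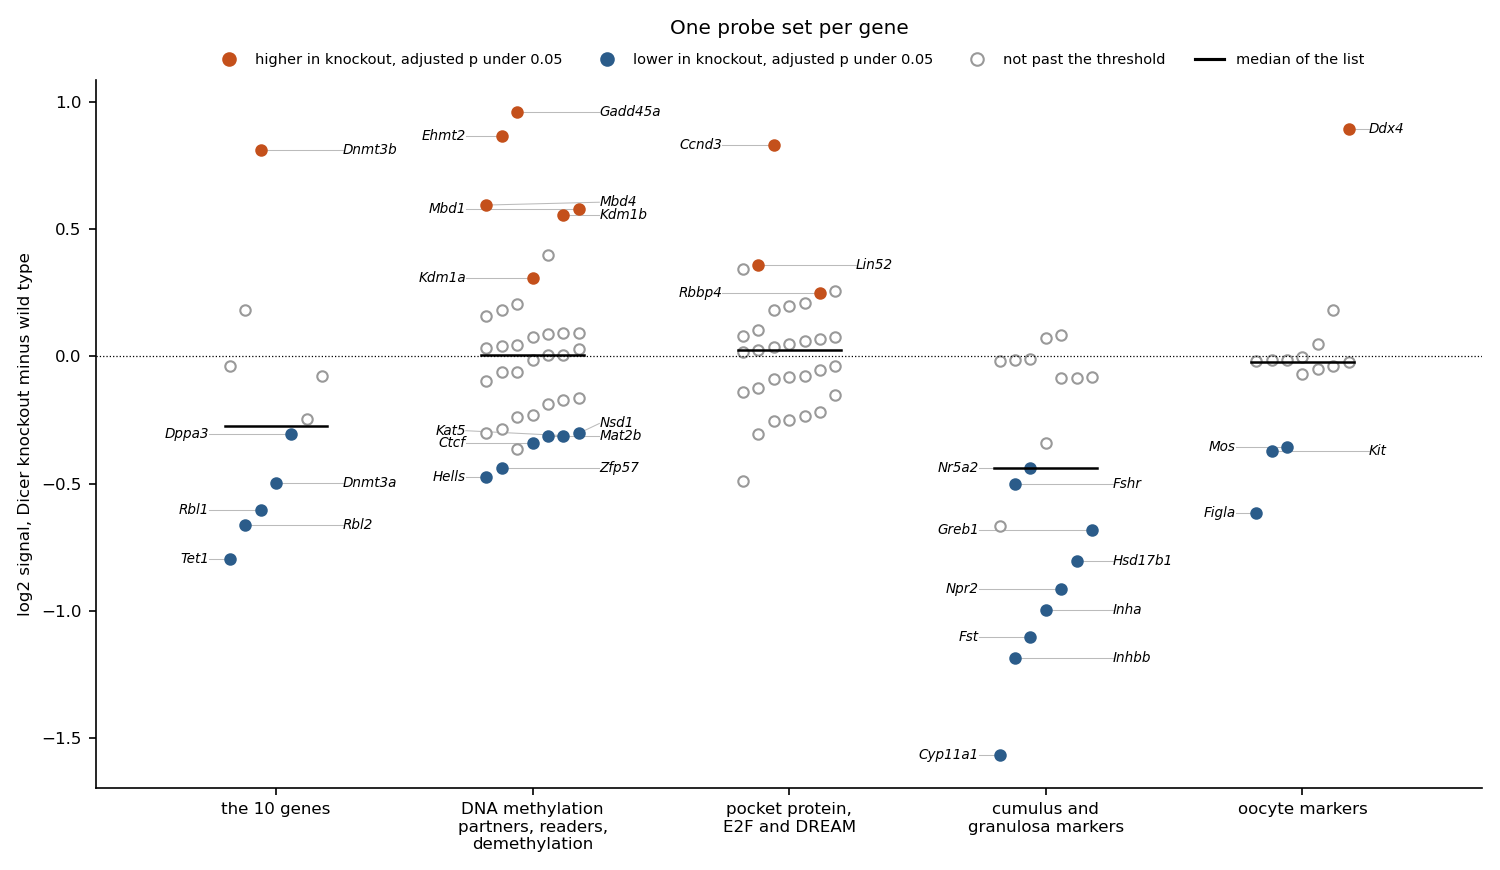
Log2 difference of knockout minus wild type (vertical axis) for the brightest probe set of each gene in the 10 genes, 2 pathway lists and 2 marker lists, coloured where the gene passed and named beside it, with bars at the list medians. Both directions occur in the 10 genes and in the methylation list, while the cumulus and granulosa markers that passed all lie below 0.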

How the data were processed

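Each of the 8 arrays gave log2 signals for 45101 probe sets. Per the submitters' processing notes, which name RMA and Partek, the authors deposited log2 values from RMA, a method for background, normalisation and probe summary. Versions are not given in the sources used here. Such values even out the arrays, so a change in total RNA would not show. The 64 control probe sets were left out. Symbols came from the platform annotation, and 34945 probe sets had 1.

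For each probe set limma 3.58.1 under R 4.3.3 gave knockout minus wild type (lmFit and eBayes, without covariates). Benjamini-Hochberg adjustment ran over all 45037 probe sets, and rose, fell and passed mean adjusted p under 0.05. Errors are SDs over 4 arrays or moderated SEs, and intervals are 95%. Differences between probe sets of a gene were fitted in the same way over 16752 pairs. The exact two-sided permutation p over 70 arrangements of the arrays cannot go below 0.0286, which 10 of the 25 probe sets reached. The fit was tested on simulated data, where it recovered 50% of changes of 0.5 on the log2 scale and 98.3% of changes of 1. Smaller changes were not simulated. The labels name 1 mouse for each sample, and no 2 arrays held the same values. The 3′ minus 5′ log2 signal of the control transcripts overlapped between groups (actin 1.95 to 2.29 in knockout and 1.97 to 2.63 in wild type; Gapdh 2.60 to 2.93 in knockout and 2.87 to 3.07 in wild type; exact permutation p = 0.257 and 0.143).

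The members and lists were chosen with earlier results of these data known. From each pathway list, the text names up to 3 genes per direction, by p among those that passed, and a few genes set by name whatever their values. Other list genes are named only to complete a count, a choice made after their values were seen. Alternatives were a filter at a mean log2 of 6, quantile, median and cyclic loess scaling, trended robust variances, array weights, the title number as a random or fixed block, and single arrays left out. For genes, they were the average over all probe sets and the omission of probe sets that carry a suffix letter (_a, _s or _x). The alternatives for the comparison of probe sets within a gene and the values within title numbers were chosen after seeing the data.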

Additional observations from a re-analysis of the deposited data

Results flagged for a closer look

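In each group of 4 arrays, a single array far from the other 3 was looked for in the 25 probe sets, 50 sets of values in all, by its gap to the nearest array over the whole range. Dppa3 (1424295_at) had one in knockout oocytes, where array 3 read 13.26 and the others 13.40 to 13.43. Chance alone gives such a gap in about 1 in 20 sets.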

How the results depend on the processing

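The settings tried left the direction of each of the 10 probe sets that passed as it was. For 9 of the 10, whose groups did not overlap, leaving out a single array could not change the sign. Of 395 recomputed differences of the 25 probe sets, 370 kept their side of the threshold, 20 no longer passed and 5 newly passed. Only the 10 that passed could lose the call, so all 20 losses lie among them. The dimmer Rbl2 probe set (1418146_a_at) passed under 8 of 16 alternatives and Dppa3 under 11 of 16. The title number as a fixed replicate block, with 2 pairs behind it, lowered the count of all probe sets past the threshold from 7264 to 2191, that of member probe sets to 3, of member genes to 2, of the methylation list to 1, of the pocket protein list to 0 and of unequal probe sets to 0. Under it the brightest Rbl1 probe set (1424156_at) stood at -0.61 ± 0.127 (adjusted p = 0.0632), against -0.61 ± 0.0852 without the block. That of Dnmt3a (1423066_at) stood at -0.39 ± 0.169 (adjusted p = 0.298), against -0.50 ± 0.121 without the block. The cause was not tested. As a random block the number had a consensus correlation of -0.08, and the dimmer Rbl2 probe set then missed the threshold (adjusted p = 0.0541).

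Without probe sets that carry a suffix letter (_a, _s or _x), 6 of the 10 genes were left, and 3 passed. Rbl2 and Dnmt3b were not among the 6, since all their probe sets carry _a. Tet1 was left with the 3 dimmer probe sets that did not pass. With dim probe sets left out, 1 unequal probe set was called. With single arrays left out, 5597 to 6399 probe sets passed in all, 7 to 11 of the members, 4 to 6 member genes, 6 to 10 methylation list genes, 1 to 4 pocket protein list genes and 2 to 5 unequal probe sets. The log2 difference of Dnmt3a (1423066_at) then lay between -0.60 and -0.42. Mean signals below the array medians, as in 7 of the 25 probe sets, limit what their differences can show.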
